A study of Mus with 3 samples.

Results

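The genes described here are 34 genes of the unfolded protein response and of protein folding in the endoplasmic reticulum (ER), the compartment in which secreted and membrane proteins fold. They were taken by name: a probe belonged to the set if the array file gave it 1 of these gene names, and a gene was represented by its brightest probe that was well above background on all 3 arrays. All 34 had a probe, and 31 were measured in this way, of 12639 genes measured in all. The other 3, Atf3, Hyou1 and Trib3, were too dim on at least 1 array, and only their readings are given.

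The samples were hippocampi of male Slc:ddY mice, 6 weeks old, in 3 groups of 10 mice. For 15 days, normal controls (NCO) and peptide-injected controls (ACO) were given distilled water by mouth, and the third group (ASO) was given shochu oil, the oil of a spirit made from sweet potato, at 2000 mg/kg per day. On day 8 the ACO and ASO mice received 10 nmol of Aβ25-35, a toxic fragment of the amyloid peptide, in 5 µL into the cerebral ventricles, while NCO mice received 5 µL of distilled water by a route that the labels do not spell out. RNA of 2 mice made 1 set, 5 sets were pooled, and each group's pool was hybridised to 1 array after a Y-maze test on day 16.

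Unfolded proteins in the ER are sensed by 3 membrane proteins, IRE1, PERK and ATF6. IRE1 splices the messenger RNA of XBP1, PERK phosphorylates eIF2α and so favours translation of ATF4, and ATF6 is cut in the Golgi to free a transcription factor. These factors raise chaperones, folding enzymes and the machinery of ER-associated degradation, and under lasting stress they raise CHOP, which is linked to cell death. The arrays measure total messenger RNA, so neither XBP1 splicing nor the activation of PERK or ATF6 was measured.

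Values are signals in arbitrary units, corrected for background and scaled to each array's 75th percentile. Differences are on the log2 scale after adding 50 to each signal, always the array named first less the other, and a log2 difference of 0.26 is 1.2-fold. With 1 pool for each group there is no replicate and no test, and the small number of arrays limits the precision of every value. The error that could be measured is that between spots: over 250 probes printed at 10 spots each, the median SD of the difference was 0.08 for ACO minus NCO, 0.09 for ASO minus ACO and 0.10 for ASO minus NCO. From 50.9% to 53.7% of the 39429 gene probes were well above background on an array. Of 5 spike-in control probes, all were dimmer on ACO than on NCO (median -0.14) and all were brighter on ASO than on ACO (median 0.48). All 8 hippocampal neuron markers were measured on every array.

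**Figure D1:**
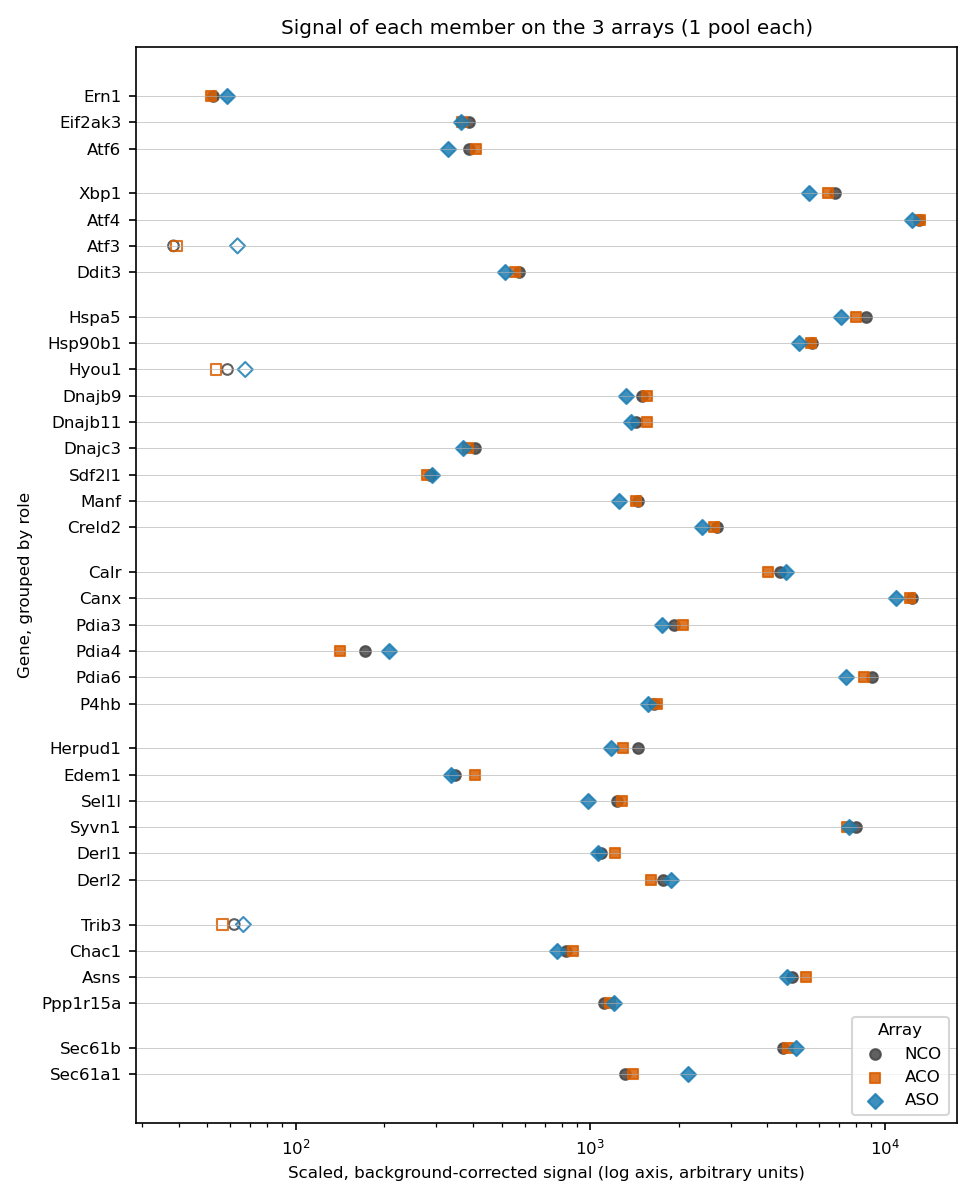
Signal of each of the 34 genes on the NCO, ACO and ASO arrays, on a log axis in arbitrary units, with genes grouped by role. Each point is 1 array of 1 pool, open points mark the 3 genes that were not well above background on every array, and the ASO point of Sec61a1 stands clear of the other arrays at 2143 against 1317 and 1394.

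Setting ACO beside NCO addresses the effect of the peptide injection. No gene of the set differed by 1.2-fold in either direction between these arrays. Differences of the 31 measured genes ran from -0.21 (Pdia4) to 0.20 (Edem1), with 14 higher and 17 lower on ACO and a median of -0.0082, beside a median of 0.0052 over all 12639 genes. Over all genes, 2.76% were at least 1.2-fold higher and 2.66% at least 1.2-fold lower, so a count of 0 of 31 lies near the background. Atf4 at 0.0031, Hsp90b1 at -0.0025 and Ddit3 at -0.046 were within the spot SD of 0.08, while Hspa5 at -0.11 was beyond it. Of 14 measured chaperones, their partners and disulfide isomerases, 10 were lower on ACO (median -0.033), while 52% of all genes were higher.

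Setting ASO beside ACO addresses the effect of the oil in peptide-injected mice, with dosing both before and after the injection. Here 22 of the 31 genes were lower on ASO and 9 higher, with a median of -0.13, while over all genes the median was -0.016 and 46.3% were higher. Most of these differences were small: Sel1l at -0.37 and Atf6 at -0.28 were at least 1.2-fold lower, and Sec61a1 at 0.60 and Pdia4 at 0.43 were at least 1.2-fold higher. Atf6 fell short of 1.2-fold with spot means (-0.26) and with 200 added to each signal (-0.21), as did Pdia4 with 200 added (0.26). Those are 2 of 31 genes in each direction, while 9.86% of all genes were at least 1.2-fold higher and 9.54% lower, so these counts do not exceed the background. No gene of the set was 2-fold apart.

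Setting ASO beside NCO compares mice given the oil and the peptide with mice given neither. In this comparison 23 of the 31 genes were lower on ASO and 8 higher, with a median of -0.08. Over all genes the median was -0.017 and 46.5% were higher. Sel1l (-0.31), Xbp1 (-0.29), Herpud1 (-0.28), Pdia6 (-0.28) and Hspa5 (-0.27) were at least 1.2-fold lower, 5 genes of 31, where 8.43% of all genes were. Sec61a1 at 0.68 was the 1 gene at least 1.2-fold higher, where 10.2% of all genes were. The 3 comparisons share arrays, each array entering 2 of them, so their values are not independent of each other.

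**Figure D2:**
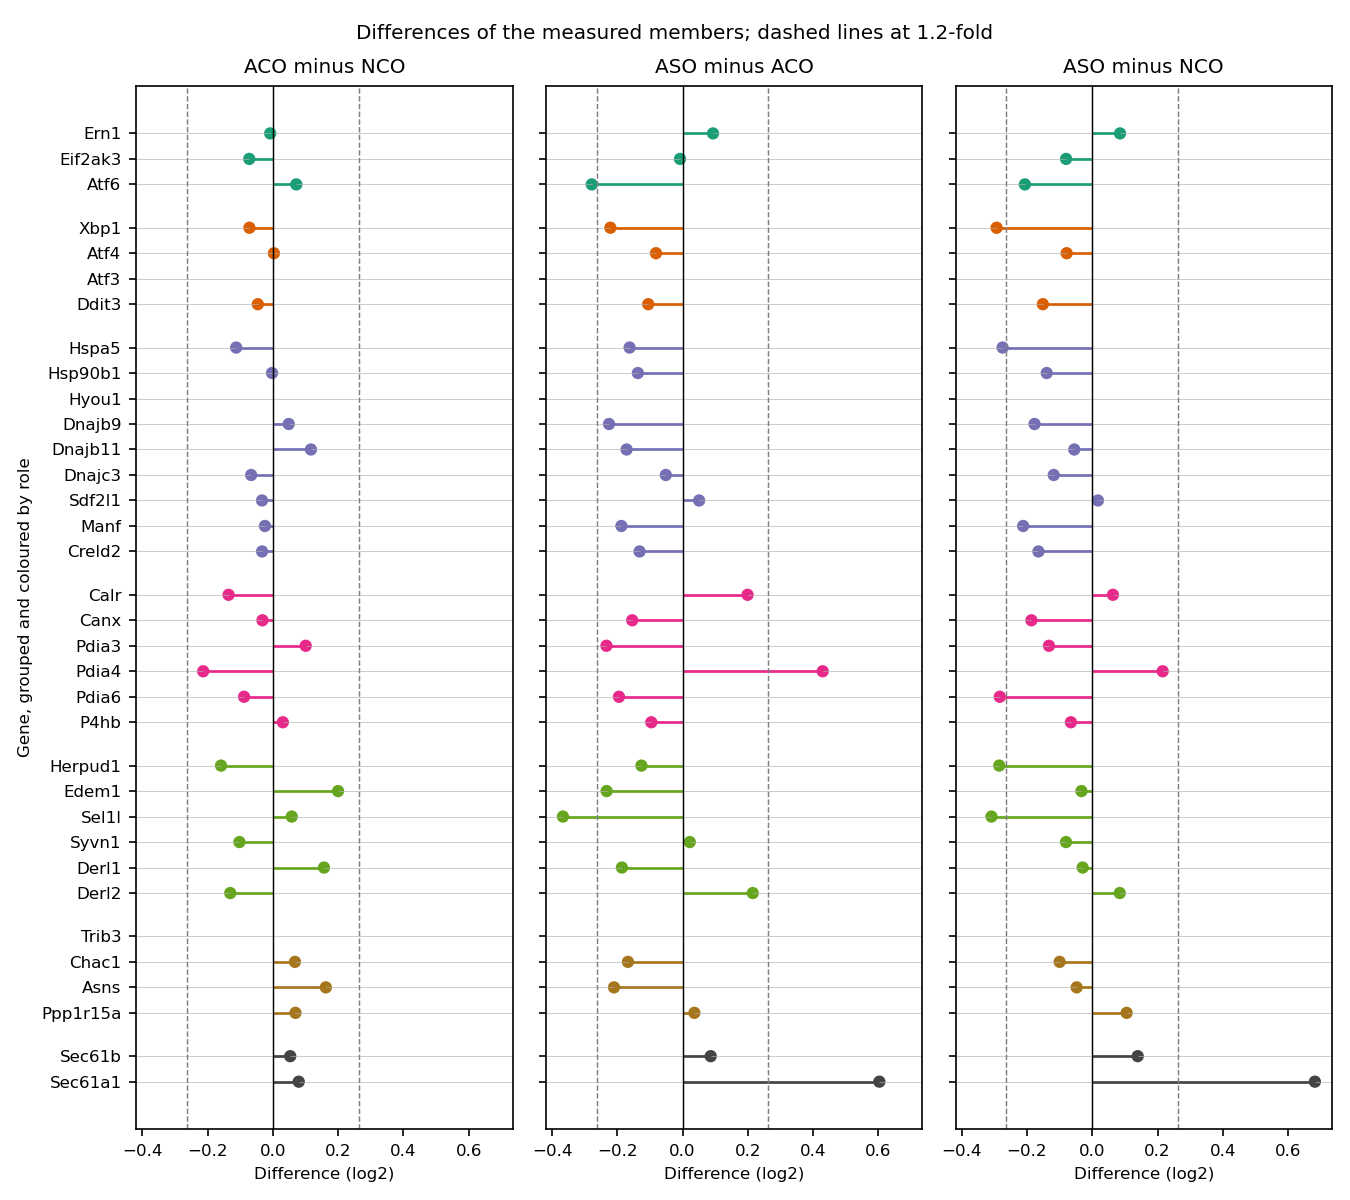
Differences of the 31 measured genes on the log2 scale in the 3 comparisons, coloured by role, with dashed lines at 1.2-fold. For ACO minus NCO no point crosses a line, while for ASO minus ACO and ASO minus NCO most points lie below 0 and Sec61a1 lies far above the upper line.

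**Figure D3:**
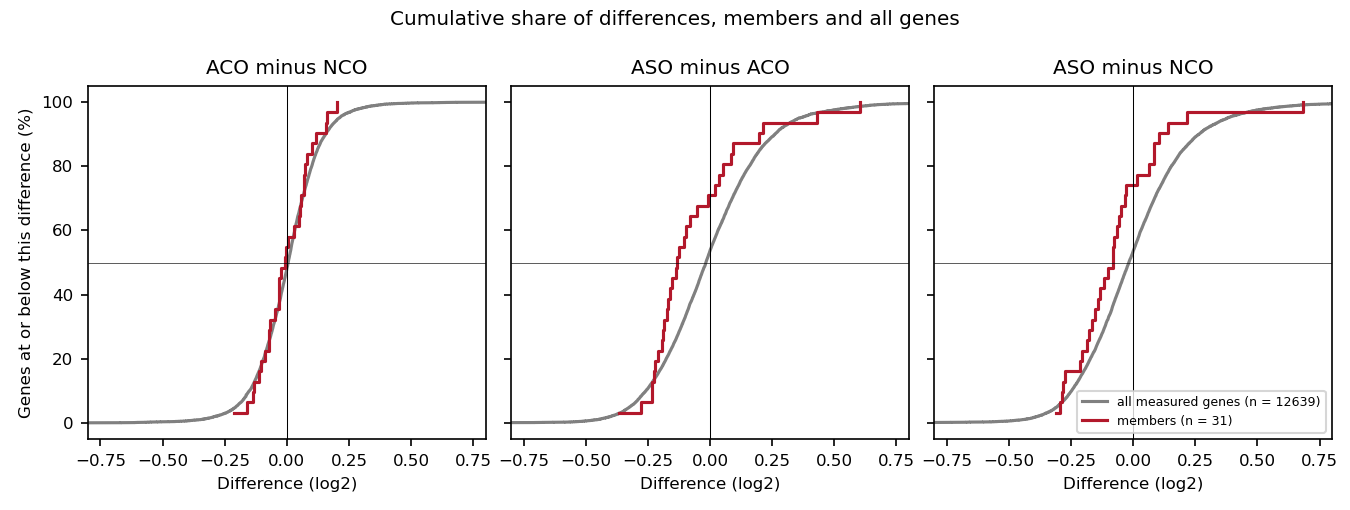
Cumulative share (%) of genes at or below a given log2 difference, for the 31 members in red and all 12639 measured genes in grey, 1 panel for each comparison; the most extreme genes lie beyond the axis. The red curve lies near the grey one for ACO minus NCO, and it is shifted to lower values over most of its length for ASO minus ACO and ASO minus NCO, where the medians of the 31 genes were -0.13 and -0.08.

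Among the sensors, Atf6, the membrane-bound factor that induces ER chaperones, gave 387 on NCO, 410 on ACO and 329 on ASO. ASO was thus the low array, at -0.28 against ACO and -0.21 against NCO; after subtracting the surrounding spots these were -0.28 and -0.08. Eif2ak3, which encodes PERK, gave 387, 366 and 364 on NCO, ACO and ASO, all differences lying within 0.08 of 0. Ern1, which encodes IRE1α, was close to background at 52.3, 51.7 and 58.5, so its differences of at most 0.09 say little.

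Of the transcription factors, Xbp1, the target of IRE1, gave 6778 on NCO, 6446 on ACO and 5523 on ASO. ASO was 1.23-fold below NCO (-0.29) and 1.17-fold below ACO (-0.22), and ACO was at -0.07 against NCO, within the spot error. With spot means the ASO minus NCO difference of Xbp1 was -0.16, short of 1.2-fold. Atf4, whose product drives amino acid and stress genes, gave 13124, 13152 and 12427, with ASO at -0.08 in both comparisons, or -0.14 against ACO and -0.19 against NCO after subtracting the surrounding spots. Ddit3, which encodes CHOP, gave 574, 555 and 512, and ASO was at -0.11 against ACO and -0.15 against NCO. By their brightest probes, all 3 measured factors were therefore lower on ASO than on either other array. A dimmer Atf4 probe was at 0.10 for ASO minus ACO, so the direction of Atf4 against ACO is not settled. Atf3, a stress-induced factor, was not well above background on NCO (38.4) and ACO (39.4) but was on ASO (63.4). The ASO readings of 1.28-fold above NCO and 1.27-fold above ACO therefore set no bound.

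The Hsp70 and Hsp90 chaperones of the ER and their partners were mostly lower on ASO, with 7 of 8 measured genes below ACO (median -0.15) and 7 of 8 below NCO (median -0.15). Hspa5 encodes BiP, the Hsp70 that also holds the sensors inactive. Its signal was 8637 (NCO), 7986 (ACO) and 7131 (ASO), with ASO at -0.16 against ACO and -0.27 against NCO. The spots around Hspa5 stood at -0.07 in both comparisons, and after subtracting them it was at -0.09 and -0.20, so it no longer reached 1.2-fold. Hsp90b1, which encodes GRP94, gave 5645, 5635 and 5120, with NCO and ACO level and ASO at -0.14 against each.

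The J-domain partners of BiP differed little. Dnajb9 gave 1505 on NCO, 1558 on ACO and 1326 on ASO, with ASO at -0.23 against ACO and -0.18 against NCO. Dnajb11 gave 1432, 1556 and 1376, highest on ACO, with ASO at -0.17 against ACO and -0.055 against NCO. Dnajc3, which also inhibits PERK, gave 406, 386 and 371, and its ASO minus ACO difference of -0.05 was smaller than the spot SD. Manf, a secreted factor released under ER stress, gave 1457, 1432 and 1251, with ASO at -0.19 and -0.21 against ACO and NCO, the latter -0.11 after subtracting the surrounding spots. Sdf2l1, a cofactor of BiP, was the 1 gene of the group that was not lower on ASO, at 286, 279 and 290, and it stood at 0.20 and 0.19 against ACO and NCO after that subtraction.

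Creld2, a disulfide isomerase-like ER protein, was printed at 10 spots and shows the precision of a single probe. The mean signals of NCO, ACO and ASO were 2718 ± 334, 2658 ± 359 and 2415 ± 264 (SD over 10 spots). Spot by spot, ASO minus NCO was -0.16 ± 0.07 (SD) and negative at 10 of 10 spots, and ASO minus ACO was -0.13 ± 0.09 and negative at 9 of 10. ACO minus NCO was -0.03 ± 0.04, negative at 7 of 10 spots. These spots share 1 RNA pool and 1 hybridisation for each array, so their SD holds no difference between mice. Hyou1, another Hsp70-type chaperone, had signals of 58.7 (NCO), 53.6 (ACO) and 67.4 (ASO). It was too dim on ACO, so the ASO reading of 1.13-fold above ACO sets no bound.

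Lectin chaperones and disulfide isomerases were mixed, with 4 of 6 lower on ASO than on ACO (median -0.13). Canx, the membrane lectin calnexin, gave 12428 on NCO, 12155 on ACO and 10917 on ASO, at -0.15 and -0.19 on ASO against ACO and NCO, or -0.26 and -0.28 after subtracting the surrounding spots. Calr, its soluble relative calreticulin, went the other way against ACO, with 4422, 4020 and 4623, so that ACO was the low array. ASO was at 0.20 against ACO and 0.06 against NCO, or 0.28 and 0.13 after that subtraction. Pdia3, the isomerase that works with both lectins, gave 1921, 2063 and 1748, highest on ACO and lowest on ASO.

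Pdia6 gave 9024 on NCO, 8485 on ACO and 7407 on ASO, with ASO at -0.19 against ACO and -0.28 against NCO, the latter -0.26 and short of 1.2-fold as the mean over its probes. P4hb, which encodes protein disulfide isomerase itself, gave 1653, 1689 and 1577, at -0.10 for ASO minus ACO and -0.07 for ASO minus NCO. After subtracting the surrounding spots, which were brighter on ASO, these were both -0.22. Pdia4 was dim, at 171, 141 and 207, and ACO was the low array, at -0.21 against NCO, with ASO at 0.43 against ACO and 0.22 against NCO. The spots around Pdia4 stood at -0.17 for ACO minus NCO and 0.13 for ASO minus ACO, and after subtracting them Pdia4 was at -0.04 and 0.30.

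In ER-associated degradation, which returns misfolded proteins to the cytosol, genes were mostly lower on ASO by their brightest probes. These were 4 of 6 genes against ACO and 5 of 6 against NCO. Sel1l, the adaptor of the HRD1 ubiquitin ligase, gave 1231 on NCO, 1283 on ACO and 984 on ASO, a difference of -0.37 against ACO (1.29-fold) and -0.31 against NCO (1.24-fold). It stayed at -0.32 and -0.30 after subtracting the surrounding spots. Syvn1, which encodes HRD1 itself, gave 8014, 7461 and 7577, and ASO was at 0.02 against ACO, or -0.13 after the same subtraction, so its direction is not settled. Herpud1, a membrane protein of this complex and a strong target of the response, gave 1449, 1292 and 1180, at -0.16 for ACO minus NCO and -0.28 for ASO minus NCO. The latter became -0.17 after subtracting the surrounding spots, and it was also short of 1.2-fold with spot means and with 200 added (both -0.26).

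Edem1, which extracts misfolded glycoproteins from the folding cycle, was highest on ACO, at 347 (NCO), 406 (ACO) and 338 (ASO). It had the largest positive ACO minus NCO difference of the set, 0.20, and stood at -0.23 for ASO minus ACO. For ASO minus NCO it was at -0.03, or -0.16 after subtracting the surrounding spots. Derl1, a channel-like membrane protein, had the same order, with 1087, 1217 and 1064, at 0.16 and -0.19. Derl2, its relative, gave 1771, 1613 and 1880 with ACO lowest, at -0.13 and 0.22.

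Among targets of ATF4 and CHOP, all 3 measured genes were slightly higher on ACO than on NCO, from 0.07 to 0.16, short of 1.2-fold. Asns, asparagine synthetase, gave 4829 on NCO, 5410 on ACO and 4670 on ASO, at 0.16 for ACO minus NCO and -0.21 for ASO minus ACO. With spot means in place of spot medians these became -0.04 and 0.03, so the direction of Asns depended on how the spot was summarised, and the median of the 3 genes for ASO minus ACO went from -0.17 to 0.03. Chac1, which degrades glutathione, gave 830, 872 and 771, with ASO at -0.17 against ACO. Its ACO minus NCO difference of 0.07 became -0.04 with spot means. Ppp1r15a, which encodes GADD34, the phosphatase subunit that reverses eIF2α phosphorylation, gave 1114, 1171 and 1202, at 0.07 for ACO minus NCO and 0.04 for ASO minus ACO. Trib3, a pseudokinase induced by CHOP, was dim at 61.8, 56.4 and 66.4 and not well above background on NCO. The ASO reading of 1.04-fold above NCO therefore sets no bound.

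The set holds 2 genes of the translocon, the channel through which new proteins enter the ER. Sec61a1, its pore subunit, gave 1317 on NCO, 1394 on ACO and 2143 on ASO, which is 1.52-fold above ACO (0.60) and 1.6-fold above NCO (0.68). It was the largest difference of the set in both comparisons. The spots around it were also brighter on ASO, at 0.12 and 0.17, and after subtracting them Sec61a1 was at 0.49 and 0.51. Sec61a1 rests on 1 probe at 1 spot, as do Sel1l, Xbp1, Hspa5, Herpud1, Atf6 and Pdia4. Sec61b, a small subunit, gave 4522, 4693 and 4985, at 0.09 and 0.14 on ASO against ACO and NCO, and its other probes, given next, differed in direction.

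A few genes had more than 1 probe, and their probes often disagreed. Over 2917 genes of the arrays with a second measured probe, the differences of the brightest and second probe correlated across genes at r = 0.15 for ACO minus NCO, 0.24 for ASO minus ACO and 0.20 for ASO minus NCO, where genes are not independent replicates. Of the 5 such genes of the set, Pdia6 had both probes lower on ASO, at -0.19 and -0.25 against ACO and -0.28 and -0.23 against NCO. Derl1 had both probes higher on ACO than on NCO, at 0.16 and 0.08, and both lower on ASO than on ACO, at -0.19 and -0.07. For ASO minus NCO they stood at -0.03 and 0.01, so that direction is not settled. The brighter Atf4 probe was at -0.08 for ASO minus ACO and the dimmer one at 0.10, with both at -0.08 for ASO minus NCO. The 3 Derl2 probes stood at 0.22, -0.30 and 0.19 for ASO minus ACO, and the 3 Sec61b probes at 0.09, 0.28 and -0.14, so neither gene has a settled direction.

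**Figure D4:**
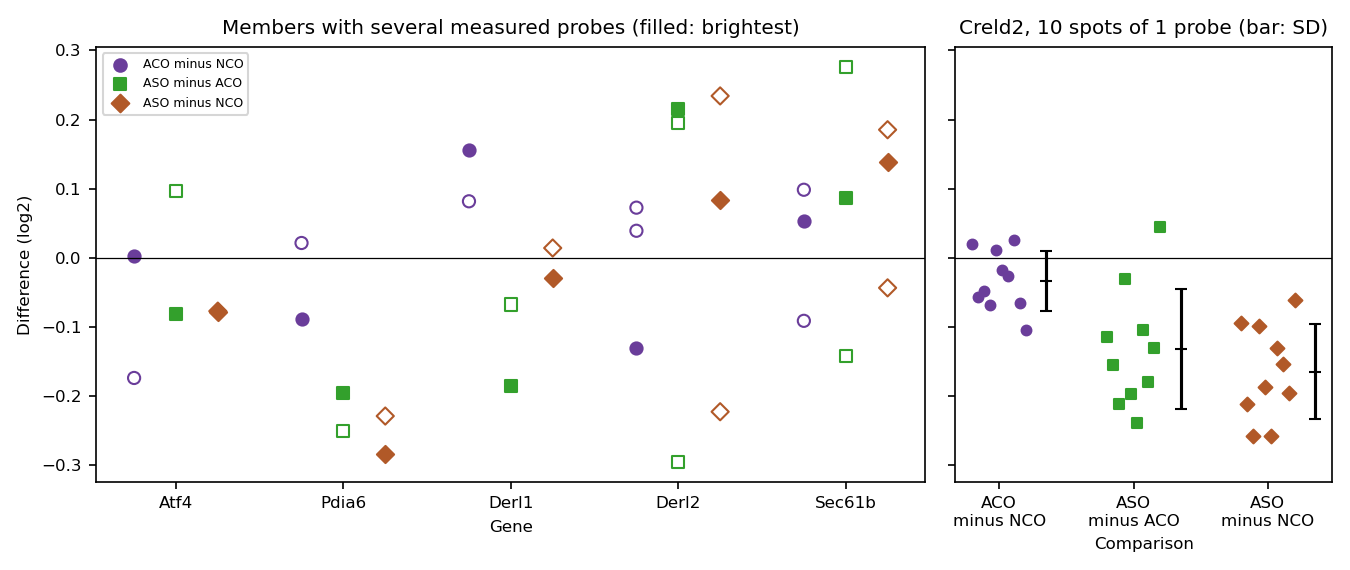
Left, log2 differences of every measured probe of the 5 genes with several probes, filled for the brightest probe and open for the others, with the comparison shown by shape and colour. Right, the differences at the 10 spots of the single Creld2 probe with mean and SD; Pdia6 probes lie together below 0 for both ASO comparisons, while the probes of Derl2 and Sec61b lie on both sides of 0.

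Values of the set are set here beside signal level and cell type markers. With measured genes divided into 4 bins of equal size by mean signal, 11 of the 31 genes were in the brightest bin and 12 in the next. In these bins all genes had a median ASO minus ACO difference of -0.02 and -0.057, and the members of the set had -0.14 and -0.17. For ASO minus NCO all genes had -0.043 and -0.050 in these bins. The members had -0.14 and -0.083, the latter closer to the value of all genes. In the dimmest bin the ASO minus ACO median over all genes was 0.029, and the members there were Ern1 and Pdia4, both higher on ASO. Quantile normalization, which gives all arrays 1 distribution of signals, gave a set median of -0.15 for ASO minus ACO.

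Microglial markers were higher on ASO than on ACO in 10 of 11 measured, with a median of 0.51, and they summed to 29052 (NCO), 28468 (ACO) and 38177 (ASO). Of the listed markers Cd68 was not well above background. All 8 astrocyte markers were higher on ASO than on ACO (median 0.10), with summed signals of 68816, 72508 and 79232 on NCO, ACO and ASO. Choroid plexus markers were higher on ACO than on NCO in 10 of 11, with a median of 0.50, while Ttr, which makes up most of their summed signal, was the 1 exception at -0.46; the sum was 25678, 22362 and 22254 on NCO, ACO and ASO. All 8 oligodendrocyte markers were lower on ACO than on NCO (median -0.15), at summed signals of 90302, 79913 and 91510. Neuron markers were split for ASO minus ACO, with 4 of 8 higher and 4 lower (median -0.02), from Calb1 at -0.49 to Wfs1 at 0.35, and Snap25 was at 0.58 for ASO minus NCO; they summed to 41782, 43307 and 45409. The 3 measured blood markers were all higher on ASO than on ACO, among them the globin Hbb-b2 at 0.93, with sums of 10056, 10151 and 11067. Of 6 endothelial markers 4 were higher on ASO than on ACO (median 0.16), with Pecam1 too dim and sums of 7674, 7239 and 7530. Fewer cells of a type and less RNA per cell cannot be told apart in such pools, and the part of these cell types, and of the brighter spike-in controls on ASO, in the values of the set was not tested.

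Other genes of the pathway, in lists chosen with earlier results of these arrays known, were measured for 136 of 155. For ACO minus NCO their median was 0.018, with 2 genes at least 1.2-fold higher and 1 lower, where 2.76% and 2.66% of all genes were. For ASO minus ACO it was -0.03, with 10 at least 1.2-fold higher and 15 lower, where 9.86% and 9.54% of all genes were. For ASO minus NCO it was -0.0065, with 9 higher and 11 lower by that much, where 10.2% and 8.43% of all genes were. As a whole these genes thus lay closer to the median of all genes than the 31 members did, a difference with no test.

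Further genes of the translocon, signal peptidase and oligosaccharyltransferase were mostly lower on ASO, with 17 of 24 below ACO (median -0.12) and 17 of 24 below NCO (median -0.11). Sec63, a translocon partner of BiP, gave 423 on NCO, 477 on ACO and 350 on ASO, at -0.40 for ASO minus ACO. Srp54a, of the signal recognition particle, gave 507, 399 and 342, at -0.31 for ACO minus NCO and -0.51 for ASO minus NCO. The channel subunits Sec61g and Sec61a2 were among the 7 genes of this list that were higher on ASO than on ACO. Sec61g gave 4088, 3598 and 5481, at 0.60 for ASO minus ACO, and Sec61a2, a second pore subunit, gave 824, 906 and 1196, at 0.51 for ASO minus NCO, so the pore subunits Sec61a1 and Sec61a2 were both at their highest on ASO.

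Of 26 further folding enzymes, 16 were lower on ASO than on ACO (median -0.058), 4 of them by at least 1.2-fold and 1 higher by that much. Over all genes 9.54% were lower and 9.86% higher by that much. Tmx4, a membrane-bound thioredoxin-related protein, gave 3998 on NCO, 4940 on ACO and 3454 on ASO, at 0.30 for ACO minus NCO and -0.51 for ASO minus ACO, so ACO was its high array. Tmx3 was at -0.38 for ASO minus ACO, and Uggt1, the glycoprotein folding sensor, at -0.35 and Hspa13 at -0.36 for ASO minus NCO. Of 16 further degradation genes 7 were lower on ASO than on ACO and 9 higher (median 0.027), a list with no shared direction. Edem3 at -0.30 and Derl3 at -0.28 were lower on ASO than on ACO, and Rnf5, a ubiquitin ligase, was at -0.34 for ASO minus NCO.

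Further targets of the integrated stress response, the branch through eIF2α and ATF4, were higher on ASO than on NCO in 15 of 22 (median 0.062). The chaperones were mostly lower, and over all genes 46.5% were higher, with a median of -0.017. By at least 1.2-fold 3 of the 22 were higher than on NCO and none lower, where 10.2% and 8.43% of all genes were. Against ACO 12 of 22 were higher (median 0.019), 5 of them by at least 1.2-fold and none lower by that much. Of all genes, 9.86% were higher and 9.54% lower by that much. Slc7a5, an amino acid transporter, gave 569 on NCO, 479 on ACO and 796 on ASO, at 0.68 for ASO minus ACO. Nupr1, a stress-induced nuclear protein, gave 466, 519 and 675, at 0.35 for ASO minus ACO and 0.49 for ASO minus NCO. Among 11 genes of eIF2 control, Eif2b4, a subunit of the exchange factor eIF2B, was at 0.53 and Eif2ak4, the amino acid sensing kinase GCN2, at -0.49 for ASO minus ACO. Of 8 further sensors and membrane factors the median was -0.0015 for ASO minus ACO, with Nfyb, a subunit of the factor NF-Y, at -0.32 and Mbtps1, a protease that cuts ATF6, at 0.28 for ASO minus NCO.

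**Figure D5:**
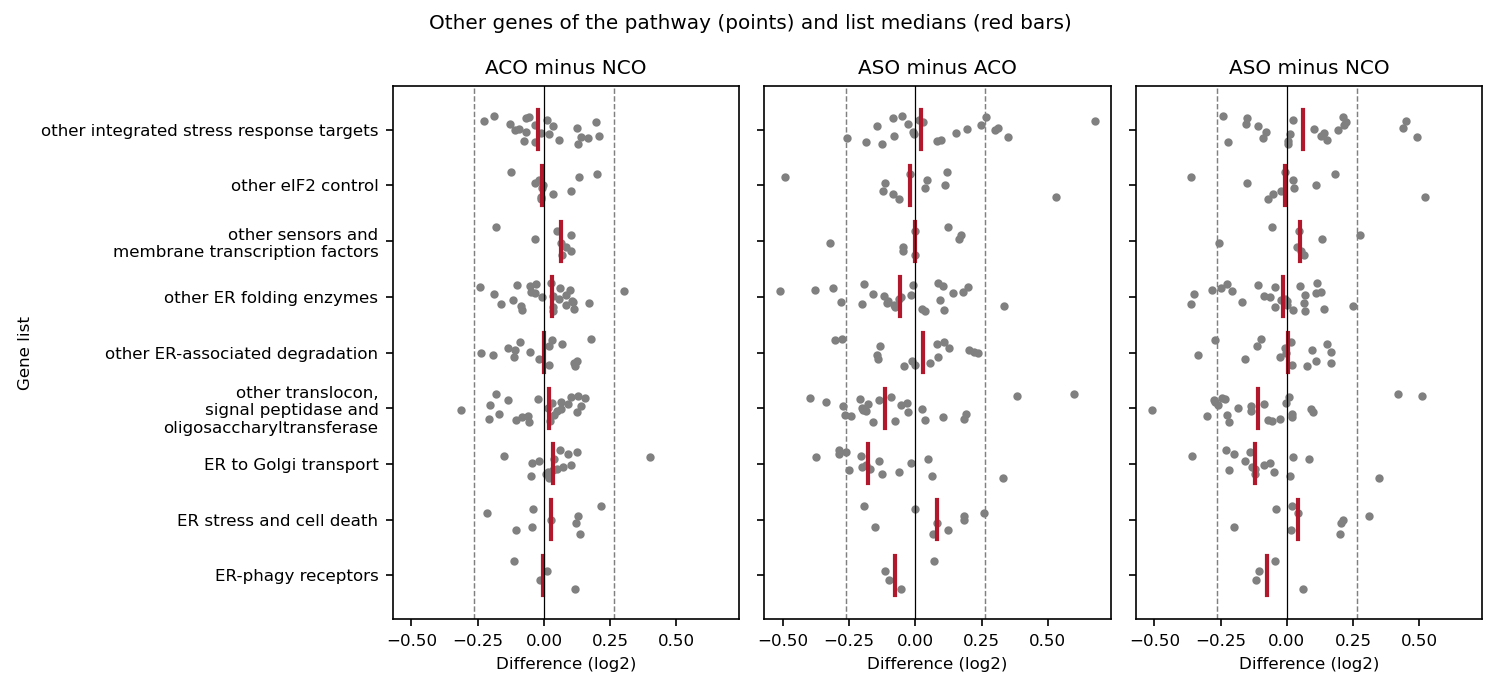
Log2 differences of the measured genes of 9 further ER and stress lists (grey points) with each list's median (red bar) in the 3 comparisons, dashed lines at 1.2-fold. The lists of translocon and ER to Golgi transport genes have their medians below 0 for ASO minus ACO, at -0.12 and -0.18, while that of integrated stress response targets is at 0.019.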

How the data were processed

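The 3 files hold 532 nm spot intensities that the authors obtained with a GenePix 4000B scanner and GenePix Pro 6.1.0.4, without normalization, per the file headers. The same deposited files list, for every spot, a saturation percent and a signal-to-noise score, used only as filters. The submitters' processing notes also name Agilent Feature Extraction, whose role is not given in the sources used here. The deposited value table gives intensities of 475 probes, none of a member gene, and was not used.

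Spot medians were background-corrected (limma 3.58.1 in R 4.3.3, normexp, saddle fit, on all spots), control spots were left out, arrays were scaled to a common 75th percentile (factors 1.06, 0.949 and 0.991 for NCO, ACO and ASO), and log2 was taken after adding 50, so that dim probes show smaller differences. Spots of a probe were averaged. A probe counted as measured with a signal-to-noise score of 2.6 or more on all 3 arrays, under 50% saturated pixels and no bad-spot mark. Members were found by the files' gene name; other probes were named through RefSeq's table of GRCm38.p6 by accession (25953 probes), symbol (3094) or synonym (580), and 9759 had no usable name. Other steps used numpy 2.4.6 and pandas 2.3.3 (Python 3.11.15), with scipy 1.17.1 for neighbouring spots, and were tested on simulated data. Where a gene was dim on an array, its ratio used its own dim signal there and is not a bound. The surrounding spots are the 40 nearest measured spots.

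All member genes are described. Of each further list, at most the 2 genes with the largest absolute difference in a comparison are named. The members, lists and rules were chosen with earlier results of these data known. Promoter motifs and ER retention tails were not analysed here.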

Additional observations from a re-analysis of the deposited data

How the results depend on the processing

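The set was recomputed under 12 alternatives of background correction, scaling, added constant, spot summary, filter, probe choice and position on the array. The median for ASO minus ACO stayed between -0.15 and -0.09 and that for ASO minus NCO between -0.11 and -0.08, while that for ACO minus NCO ran from -0.037 to 0.0085 and changed sign with quantile normalization. Less the median of all genes, the medians ran from -0.12 to -0.085, from -0.092 to -0.062 and from -0.029 to 0.0021. Counts of genes at least 1.2-fold apart were small and moved. With spot means 1 gene was lower for ACO minus NCO (Pdia4), 1 for ASO minus ACO (Sel1l) and 3 for ASO minus NCO (Hspa5, Pdia6 and Sel1l). With 200 added, 1 gene was higher (Sec61a1) and 1 lower (Sel1l) for ASO minus ACO. After subtracting surrounding spots 4 were lower for ASO minus ACO (Atf6, Pdia6, Edem1 and Sel1l) and 3 higher (Calr, Pdia4 and Sec61a1). For ASO minus NCO that subtraction gave 4 lower (Xbp1, Canx, Pdia6 and Sel1l) and 2 higher (Pdia4 and Sec61a1). Leaving dim probes in also gave 2 higher for ASO minus NCO (Atf3 and Sec61a1). The cause was not tested. Sec61a1 and Sel1l passed 1.2-fold in both ASO comparisons under all 12 alternatives, which reuse the same 1 spot of each gene. The deposited value table holds no member gene, so the set was not recomputed from it. No paired analysis was possible because each group is 1 array. Signal over background limits Ern1, Atf3, Hyou1 and Trib3.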

Other observations

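Genes of transport from the ER to the Golgi were lower on ASO than on ACO in 13 of 16 measured, with a median of -0.18, and lower than on NCO in 12 of 16, with a median of -0.12. For ACO minus NCO 12 of 16 were higher, with a median of 0.036. Sec24d, a cargo adaptor of the COPII coat, gave 278 on NCO, 382 on ACO and 283 on ASO, so ACO was its high array, at 0.40 above NCO and with ASO at -0.37 against ACO. Sec24c, a related adaptor, gave 10412, 9382 and 8122, at -0.36 for ASO minus NCO. Preb, the exchange factor that starts COPII assembly, went the other way at 1682, 1704 and 2156, with 0.33 for ASO minus ACO.

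Genes of ER stress and cell death were higher on ASO than on ACO in 7 of 9 measured, with a median of 0.083. Over all genes 46.3% were higher, with a median of -0.016. None of the 9 was higher than on ACO by 1.2-fold, where 9.86% of all genes were. Against NCO 7 of 9 were higher (median 0.043), and Bak1 at 0.31 was the 1 gene past 1.2-fold, where 10.2% of all genes were. Bax, a pore-forming killer of the BCL2 family, gave 1591 on NCO, 1363 on ACO and 1641 on ASO, at -0.22 for ACO minus NCO and 0.26 for ASO minus ACO. Bbc3, which encodes PUMA, gave 996, 1163 and 1010, the opposite order, at 0.21 and -0.20. Of 4 measured ER-phagy receptors, which feed ER fragments to lysosomes, 3 were lower on ASO than on ACO, with Rtn3 at -0.11 and Ccpg1 at -0.10.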
